A study of Danio rerio with 12 samples.

Results

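The transcriptional response of the larval zebrafish tail to excision was examined in larvae whose type I TGF-β receptors were pharmacologically inhibited with SB431542. It was measured as the difference between 3 libraries of cut tails and 3 libraries of uncut tails, all 6 under SB431542, out of 12 libraries in the series. All genes that passed a filter on low counts were compared, 13978 of the 30258 in the deposited count table, with the difference taken as cut over uncut. In the cut group, wild-type larvae lost about 200 µm of tail at the pigment gap when 72 h old, were kept in 50 µM SB431542 until 90 h, and 18 h after the cut gave up a second stretch of 200 µm for RNA. In the uncut group, unoperated wild-type larvae spent the same hours in the same drug, and the corresponding region was taken at 90 h. The other 6 libraries of the series were cut and uncut tails with 0.1% DMSO, the vehicle, in place of the drug. Tricaine, an anaesthetic, is given for all 12 libraries at 40 µg/ml. Each library was a pool of 100 tails and came from a kit that reads only the stretch of a messenger RNA beside its poly(A) tail. The labels do not say that pools of a group came from separate clutches, so the p-values reflect how much these pools vary, part of which may be technical.

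SB431542 blocks the kinase activity of ALK4, ALK5 and ALK7, the type I receptors that TGF-β, activin and nodal ligands use to phosphorylate Smad2 and Smad3. BMP signalling runs through other type I receptors and Smads. After a zebrafish larval tail is cut, epidermis closes over the stump, neutrophils and macrophages arrive, a provisional matrix is laid down and remodelled, and cells near the cut end proliferate to replace notochord, muscle, nerve and fin fold.

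1 library, replicate 4 of the uncut SB431542 group, stood apart from the rest. Correlated with each other library in turn, it gave a median of 0.905, and the other 11 libraries gave medians of 0.934 to 0.944. It had 349 genes at least 4-fold away from both other libraries of its group, 87 above and 262 below, while the other 11 libraries had 26 to 100 such genes. Every result below was therefore also computed without it. Total estimated counts of the 6 SB431542 libraries ran from 7368986 to 10843877. TMM scaling factors, which correct for a few abundant transcripts taking up reads, were 1.08 to 1.23 in the 3 cut pools and 0.903 to 0.965 in the 3 uncut pools. Levels are given as CPM, counts scaled by library total and by that factor, and pools are listed in the order of replicates 2, 3 and 4.

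Excision under SB431542 was followed by more increases than decreases. With edgeR's quasi-likelihood test and a Benjamini-Hochberg adjusted p under 0.05, 208 genes (1.49% of those tested) were higher and 80 (0.572%) were lower in cut pools, 169 and 42 of them by at least 2-fold. When uncut replicate 4 was left out, 273 genes (1.89% of 14480 tested) were higher and 126 (0.87%) lower. Of the calls made with all libraries, 159 of 208 increases and 56 of 80 decreases were also made without that library, which were 58.2% and 44.4% of the calls made without it. All 288 genes kept their sign. The leading genes described next are the 20 of the largest size in each direction. They were taken from named genes called with and without uncut replicate 4, with a mean of at least 5 CPM and no overlap between groups. 1 decrease among them, ENSDARG00000074745, had only a placeholder symbol. Of these 40, 35 were also called in each of the 5 fits that left out another pool, the exceptions being CAVIN1, insig1, tnni1c, PRDM8 and notum2. Of the 208 increases, 207 had no overlap between the 3 cut and the 3 uncut pools, the exception being CORO1A, as did 80 of 80 decreases. Among all genes tested, 9.69% and 8.95% were separated upwards and downwards. Calling from 3 pools a group favours separated genes, so this is not separate support for the calls. The number of calls depended on other single libraries too: it fell to 90 increases and 29 decreases without cut replicate 3, 98 and 37 without cut replicate 4 and 116 and 63 without uncut replicate 3, and decreases fell to 44 without cut replicate 2. For every list below, the shares of all genes to set beside its called members are 1.49% higher and 0.572% lower. Without uncut replicate 4 they are 1.89% and 0.87%. Of all genes tested, 7018 had a positive and 6956 a negative log2 fold change, and the median was 0.00265. Scaling the libraries by their totals, without TMM factors, moved that median to 0.305 and the calls to 783 increases and 31 decreases. This is a setting chosen after the data were seen.

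The leading increases included complement, fibronectin, protease inhibitor, neuropeptide and macrophage genes. The complement gene c4b (ENSDARG00000038424), whose product is cleaved when the classical or lectin pathway is triggered, had 15.13, 18.9 and 17.4 CPM in cut pools, against 0.590, 1.48 and 0.101 CPM in uncut pools. The uncut pool with the lowest level was replicate 4. The log2 fold change of c4b was 4.72 ± 0.42 (adjusted p = 1.43e-06), and 4.104 without that library. FN1 (ENSDARG00000006526), a fibronectin gene of the provisional wound matrix, had 347, 262 and 350.0 CPM in cut pools and 9.43, 16.9 and 18.4 CPM in uncut pools, a 21.4-fold difference. The metalloproteinase inhibitor gene TIMP2 (ENSDARG00000075261) had 215, 247 and 224 CPM in cut pools and 13.7, 16.1 and 21.3 CPM in uncut pools (log2 fold change 3.74 ± 0.21). It had the smallest adjusted p of all genes, 3.14e-09. CLU (ENSDARG00000010434), encoding the extracellular chaperone clusterin, had 122, 146 and 162 CPM in cut pools and 26.2, 26.6 and 27.9 CPM in uncut pools (log2 fold change 2.41 ± 0.18, adjusted p = 2.17e-07). Its uncut pools differed by less than 2 CPM, and replicate 4 was close to the others.

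**Figure D1:**
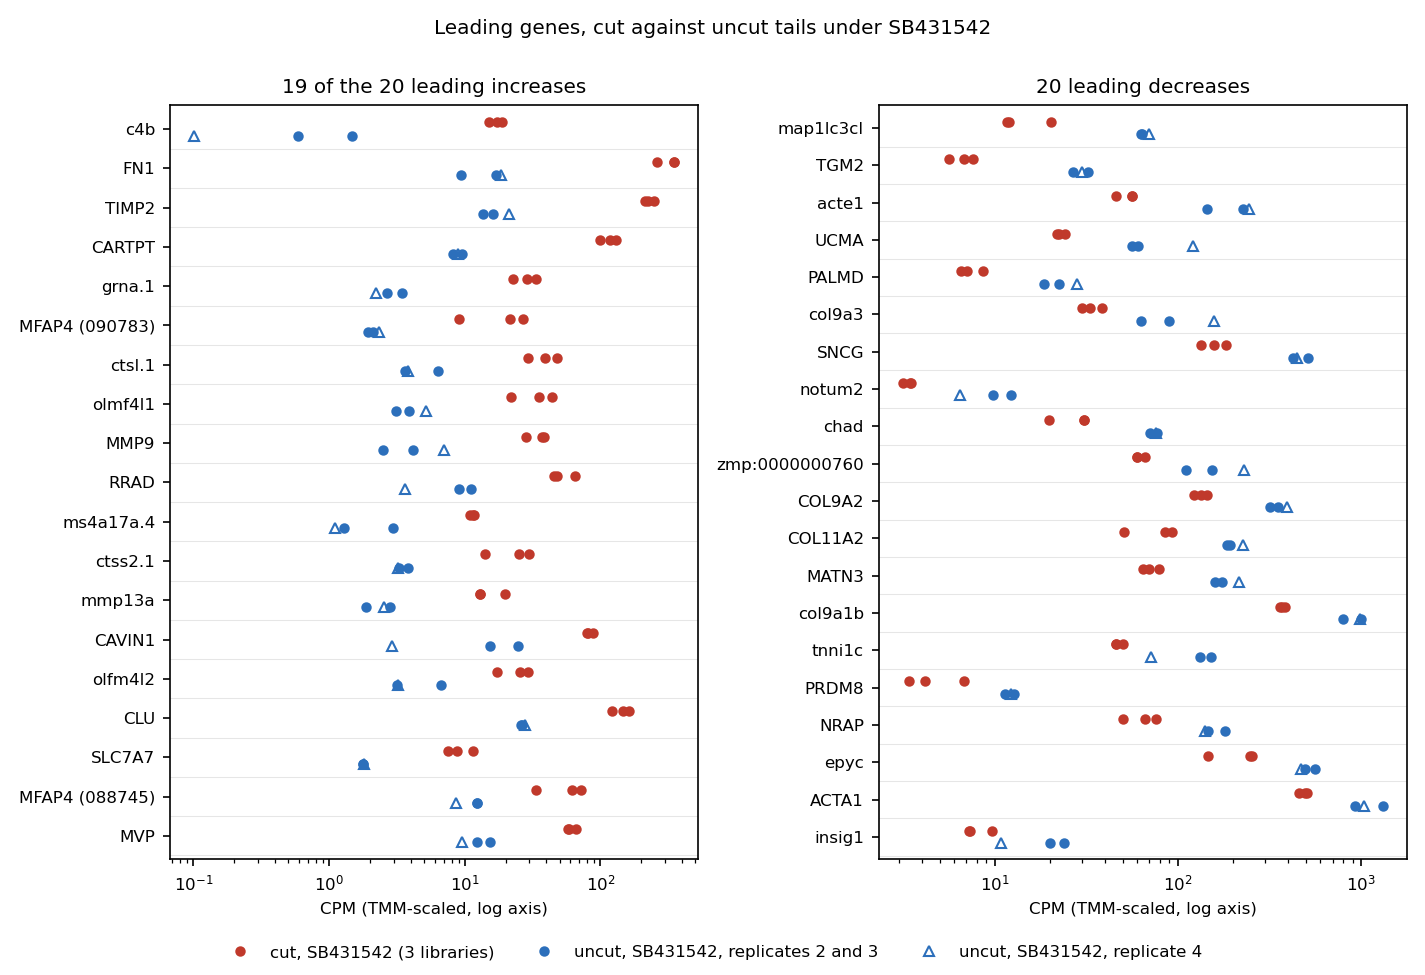
CPM (log axis) of 19 of the 20 top increases and the 20 top decreases by size, among genes called both with and without uncut replicate 4 and chosen for no overlap between groups, in each SB431542 pool; red circles are cut pools, blue circles uncut replicates 2 and 3, and open triangles uncut replicate 4. For CLU the cut pools lie at 122 to 162 CPM and the uncut pools at 26.2 to 27.9 CPM.

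Further genes among the 20 leading increases belonged to no single group. The gene RRAD (ENSDARG00000052011), encoding a small GTPase, had 45.5, 47.6 and 64.5 CPM in cut pools and 9.08, 11.1 and 3.63 CPM in uncut pools, where replicate 4 was the lowest (log2 fold change 2.77 ± 0.36, adjusted p = 0.000474). The olfactomedin genes olmf4l1 (ENSDARG00000074322) and olfm4l2 (ENSDARG00000109648) had cut pools at 21.8, 43.7 and 35.5 CPM and 17.3, 25.5 and 29.4 CPM, against uncut pools at 3.89, 3.11 and 5.14 CPM and 3.18, 6.66 and 3.23 CPM. In both, cut replicate 2 was the lowest cut pool. ms4a17a.4 (ENSDARG00000014024), of the MS4A family of membrane proteins, had 11.01, 11.6 and 11.6 CPM in cut pools and 1.297, 2.96 and 1.11 CPM in uncut pools. CAVIN1 (ENSDARG00000059362), whose product coats caveolae, had 88.7, 79.8 and 80.7 CPM in cut pools. In uncut pools it had 24.8, 15.2 and 2.92 CPM, and replicate 4 was the lowest by more than 5-fold. Its log2 fold change was 2.56 ± 0.55 (adjusted p = 0.0448) with all libraries and 2.04 (adjusted p = 0.00478) without uncut replicate 4. 1 gene of the neuropeptide and hormone list was called, CARTPT (ENSDARG00000035852), 1 of 4 gene IDs with the symbol of the CART neuropeptide precursor. It had 118, 98.6 and 129.5 CPM in cut pools and 8.14, 9.62 and 8.87 CPM in uncut pools, a log2 fold change of 3.70 ± 0.28 (adjusted p = 2.17e-07), and the pools of each group lay close together.

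Macrophage genes were higher in cut tails under the inhibitor. Of 21 macrophage markers tested, counted by gene ID, 11 rose and 0 fell, with a median log2 fold change of 1.24. A symbol shared by several IDs, such as MFAP4, can thus count more than once. Without uncut replicate 4 the counts were 10 and 0, and they were 6 and 0 without cut replicate 3 or cut replicate 4 and 7 and 0 without uncut replicate 2 or 3. Summed over all matched markers, the level was 191, 312 and 342 CPM in cut pools and 91.9, 98.3 and 104 CPM in uncut pools. The lowest cut pool, replicate 2, was above the highest uncut pool. In bulk tissue, more cells of a type and more RNA per cell cannot be told apart. MFAP4 (ENSDARG00000090783), a macrophage marker in zebrafish whose symbol is shared by 8 IDs, had 9.08, 21.7 and 26.7 CPM in cut pools and 2.12, 1.92 and 2.32 CPM in uncut pools (log2 fold change 3.17 ± 0.46, adjusted p = 0.000866). MFAP4 (ENSDARG00000088745), with the same symbol, had 33.6, 71.6 and 61.5 CPM in cut pools and 12.4, 12.3 and 8.57 CPM in uncut pools. Cut replicate 2 was the lowest cut pool for both IDs. The amino acid transporter gene SLC7A7 (ENSDARG00000055226) had 8.71, 7.52 and 11.6 CPM in cut pools and 1.77, 1.78 and 1.81 CPM in uncut pools (adjusted p = 0.00112). The scavenger receptor gene marco (ENSDARG00000059294) had 12.5, 16.0 and 22.6 CPM in cut pools and 3.77, 2.81 and 4.33 CPM in uncut pools. LCP1 (ENSDARG00000023188), an actin-bundling gene of leukocytes, had 20.9, 33.8 and 38.3 CPM in cut pools and 10.4, 9.03 and 8.97 CPM in uncut pools, again with no overlap.

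Of 16 neutrophil markers, 5 rose and 0 fell (median log2 fold change 0.88; 5 and 0 without uncut replicate 4, 4 and 0 without any other single library except cut replicate 2, where 5 rose). Several of these are not particular to neutrophils: MMP9 (ENSDARG00000042816) and mmp13a (ENSDARG00000012395) are metalloproteinases, and s100a10b (ENSDARG00000025254) encodes an annexin partner of many cells. MMP9 had 38.5, 28.4 and 37.0 CPM in cut pools and 4.13, 2.52 and 7.06 CPM in uncut pools (log2 fold change 2.86 ± 0.30, adjusted p = 1.28e-05). For mmp13a the levels were 12.9, 12.9 and 19.7 CPM in cut pools and 1.89, 2.81 and 2.52 CPM in uncut pools. The metalloproteinase-disintegrin gene adam8a (ENSDARG00000001452) had 17.9, 19.2 and 21.7 CPM in cut pools and 4.13, 4.44 and 5.64 CPM in uncut pools. All 3 were separated between the groups, which for MMP9 and mmp13a was a condition of their choice as leading increases. srgn (ENSDARG00000077069), encoding the granule proteoglycan serglycin, had 25.7, 34.1 and 42.5 CPM in cut pools and 11.4, 14.9 and 22.6 CPM in uncut pools (adjusted p = 0.0439).

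Genes of granulin, of lysosomal proteases and of some other lysosomal and endosomal proteins rose with these markers. Of 24 tested, 7 rose and 0 fell (median log2 fold change 0.60), 9 without uncut replicate 4, 3 without cut replicate 4 and 4 without uncut replicate 3. The granulin gene grna.1 (ENSDARG00000089362), of a growth factor precursor made by macrophages among other cells, had 22.9, 28.8 and 33.7 CPM in cut pools and 3.42, 2.66 and 2.22 CPM in uncut pools (log2 fold change 3.37 ± 0.31, adjusted p = 3.47e-06). The cathepsin gene ctsl.1 (ENSDARG00000003902) had 29.4, 48.2 and 39.1 CPM in cut pools and 3.66, 6.36 and 3.83 CPM in uncut pools. A second cathepsin gene, ctss2.1 (ENSDARG00000074656), had 14.0, 24.9 and 29.8 CPM in cut pools and 3.30, 3.85 and 3.23 CPM in uncut pools. Both are leading increases, which were chosen for no overlap between groups. NPC2 (ENSDARG00000096979), encoding a lysosomal cholesterol carrier, had 1.94, 1.33 and 2.71 CPM in cut pools and was at 0 in the 3 uncut pools. The endosomal tetraspanin gene CD63 (ENSDARG00000025147) was abundant in both groups, with 226, 269.8 and 262 CPM in cut pools and 152, 125 and 156 CPM in uncut pools (log2 fold change 0.81 ± 0.17, adjusted p = 0.0153).

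Of 11 complement genes, 3 rose and 0 fell (3 and 0 without uncut replicate 4, 2 and 0 without any 1 of the other SB431542 pools). After c4b came c7a (ENSDARG00000042172), of the membrane attack complex, with 13.4, 13.6 and 10.1 CPM in cut pools and 2.71, 3.40 and 1.81 CPM in uncut pools (log2 fold change 2.27 ± 0.34, adjusted p = 0.000653), and its paralogue c7b (ENSDARG00000057121) with 11.9, 12.3 and 10.5 CPM in cut pools and 4.36, 5.77 and 5.85 CPM in uncut pools (adjusted p = 0.0483). Lipid handling gave 2 increases among 14 genes, 1 of them without any single pool other than uncut replicate 4. The lipoprotein gene apoeb (ENSDARG00000040295) had 780.4, 717 and 1070.1 CPM in cut pools and 382, 447 and 334 CPM in uncut pools (log2 fold change 1.14 ± 0.20). The cholesterol exporter gene abca1b (ENSDARG00000079009) had 37.9, 38.5 and 34.02 CPM in cut pools and 20.9, 21.2 and 21.6 CPM in uncut pools, a smaller difference that was larger than the spread of either group (adjusted p = 0.0271).

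Cytokine genes themselves gave 3 increases, where 1.49% of all genes tested rose and 0.572% fell. Of 19 cytokine, chemokine and receptor genes, 3 rose and 0 fell, 2 without uncut replicate 4, 2 without cut replicate 3 or uncut replicate 2 and 1 without any other single pool. The chemokine gene ccl34a.4 (ENSDARG00000090873) had 3.15, 7.33 and 4.70 CPM in cut pools and 0, 0 and 0.605 CPM in uncut pools, where 2 of the 3 pools held no reads. tnfrsf1a (ENSDARG00000018569), a receptor for TNF, had 21.4, 20.9 and 18.6 CPM in cut pools and 13.1, 6.22 and 8.77 CPM in uncut pools (adjusted p = 0.0321). The neutrophil-attracting chemokine gene cxcl18b (ENSDARG00000075045) had 3.63, 4.09 and 4.07 CPM in cut pools and 1.65, 0.888 and 1.51 CPM in uncut pools (adjusted p = 0.0471). The call of cxcl18b was not made without uncut replicate 4 (adjusted p = 0.0670). Among 9 interferon response genes 0 were called in either direction. A list of STAT3 feedback and acute phase genes, which also holds receptor and kinase genes upstream of STAT3, gave 5 increases and 1 decrease among 20. The counts were 5 and 1 without uncut replicate 4, and the number of increases was 4 or 5 in every fit without 1 pool. The increases were SOCS3, il6st, JAK1, TIMP2 and JUNB, of which TIMP2 and JUNB are also counted in other lists. SOCS3 (ENSDARG00000026611), a STAT3-induced brake on cytokine receptors, had 32.6, 36.3 and 49.8 CPM in cut pools and 9.67, 11.1 and 13.6 CPM in uncut pools (log2 fold change 1.78 ± 0.27, adjusted p = 0.000653). Its groups were well apart, with the highest level in cut replicate 4. The shared receptor of the interleukin-6 family, il6st (ENSDARG00000104693), had 71.8, 70.6 and 81.2 CPM in cut pools and 38.2, 36.3 and 34.2 CPM in uncut pools, and the kinase gene JAK1 (ENSDARG00000020625) had 176, 181 and 167 CPM in cut pools and 99.9, 111 and 81.2 CPM in uncut pools. CISH (ENSDARG00000060316), a related brake that STAT5 induces in mammals, went the other way, with 31.7, 22.8 and 23.3 CPM in cut pools and 52.95, 49.9 and 34.7 CPM in uncut pools (log2 fold change -0.82 ± 0.20, adjusted p = 0.0431); its decrease was called without uncut replicate 4 and without cut replicate 2, and in no fit that left out another pool.

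AP-1 genes rose, while no other immediate early gene was called. Of 12 AP-1 genes, which encode leucine zipper transcription factors induced by stress and wounding, 5 rose and 0 fell (median log2 fold change 0.99), 4 without uncut replicate 4 and 3 without cut replicate 2, cut replicate 3 or uncut replicate 3. Their summed level was 366, 291 and 295 CPM in cut pools and 177, 165 and 149.98 CPM in uncut pools. The groups did not overlap. FOSL2 (ENSDARG00000040623) had 75.03, 50.2 and 62.4 CPM in cut pools and 17.5, 13.8 and 6.85 CPM in uncut pools (log2 fold change 2.32 ± 0.26, adjusted p = 2.61e-05), and fosl1b (ENSDARG00000079373) had 2.30, 5.81 and 5.11 CPM in cut pools and 0.118, 0.148 and 0.202 CPM in uncut pools. FOSL1 (ENSDARG00000015355) spread widely within both groups, at 77.4, 44.1 and 28.1 CPM in cut pools and 17.3, 8.14 and 2.92 CPM in uncut pools, with replicate 2 the highest of each group, and it was not called without uncut replicate 4 (adjusted p = 0.0434, and 0.0642 without it). JUNB (ENSDARG00000074378) had 32.8, 26.0 and 33.5 CPM in cut pools and 7.67, 11.8 and 9.27 CPM in uncut pools (adjusted p = 0.000513). ATF3 (ENSDARG00000007823), a stress-induced partner of Jun proteins, had 49.0, 41.3 and 29.3 CPM in cut pools and 18.99, 13.02 and 5.04 CPM in uncut pools. Of 27 other immediate early genes, such as those of the Egr and Nr4a families, 0 were called in either direction, with and without uncut replicate 4. Their median log2 fold change was -0.02 with all libraries and 0.28 without that pool, when that of all genes was 0.04.

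**Figure D2:**
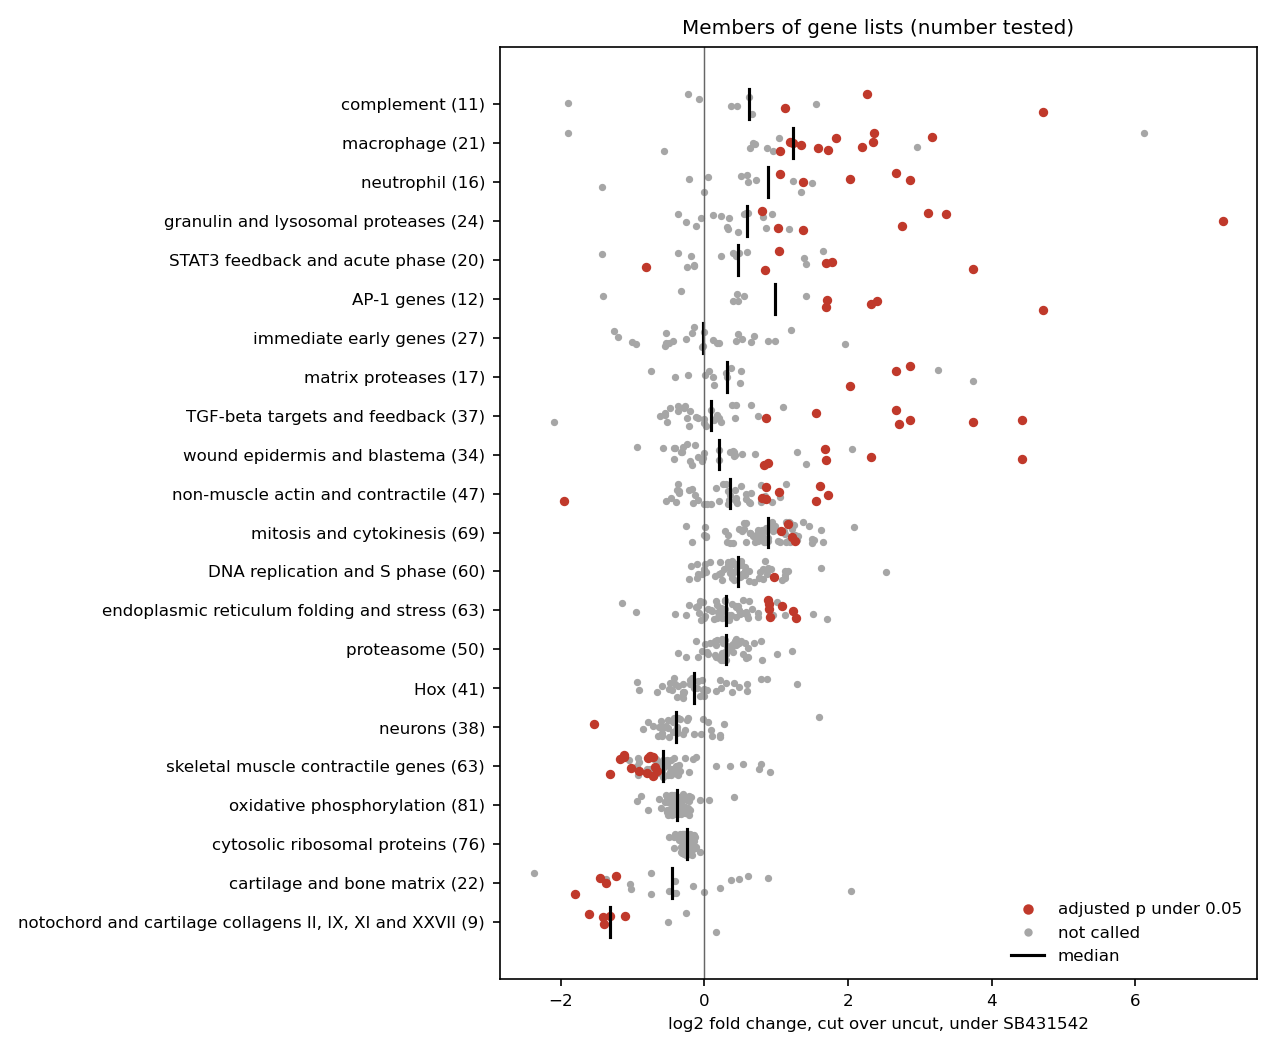
Log2 fold change, cut over uncut under SB431542, of every tested member of 22 gene lists; each dot is 1 gene, red where the adjusted p is under 0.05, black bars are list medians and the number tested is in parentheses. Macrophage members have a median of 1.24, mitosis members 0.88 with 4 called, and muscle contractile genes -0.58 with 13 called; dots beyond 6 belong to genes at or near 0 in uncut pools, whose fitted size is not reliable.

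Matrix protease genes gave 3 increases, where 1.49% of all genes tested rose and 0.572% fell. Of 17 matrix proteases, MMP9, mmp13a and adam8a rose and 0 fell (median log2 fold change 0.32), and the count was 3 without any single pool. HTRA3 (ENSDARG00000052895), a secreted serine protease gene, had 3.03, 1.90 and 5.11 CPM in cut pools and 0, 0 and 0.302 CPM in uncut pools, where 2 pools held no reads. Of 5 matrix protease inhibitors, TIMP2 rose, while the other 4 had negative values with all libraries and were not called. The median log2 fold change was -0.37 with all libraries and -0.06 without uncut replicate 4.

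Genes that TGF-β signalling is known to induce included several of these. Of 37 target and feedback genes, 7 rose and 0 fell, 8 and 0 without uncut replicate 4 and 6 without any other single pool, while the list's median log2 fold change was 0.09. The increases included TIMP2, MMP9, mmp13a, FN1, TAGLN (ENSDARG00000045408), a smooth muscle actin-binding gene, and THBS1 (ENSDARG00000103775), a matricellular thrombospondin gene; these were also higher in cut pools under DMSO. TAGLN had 9.20, 12.4 and 14.6 CPM in cut pools and 3.66, 5.48 and 3.53 CPM in uncut pools (log2 fold change 1.55 ± 0.29). THBS1 had 57.4, 46.7 and 56.5 CPM in cut pools and 32.5, 19.7 and 35.9 CPM in uncut pools (adjusted p = 0.0476). The cut pools of both were above every uncut pool. Of 14 ligands and receptors of the TGF-β and activin branch, tgfb1a (ENSDARG00000041502) was higher, at 33.9, 41.5 and 33.5 CPM in cut pools and 20.4, 22.5 and 16.3 CPM in uncut pools (log2 fold change 0.89 ± 0.21, adjusted p = 0.0349). That call was not made without uncut replicate 4 (adjusted p = 0.0670) or without any other single pool.

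Structural matrix genes other than fibronectin gave few increases. Of 32 provisional matrix genes 2 rose, and 3 did without uncut replicate 4. The 2 were 1 ID of FN1 and 1 of THBS1, symbols that 2 IDs each share. Of 23 collagens outside the fibrillar and cartilage classes, COL6A3 (ENSDARG00000077139), a chain of the microfibrillar collagen VI, rose, with 29.9, 38.7 and 29.3 CPM in cut pools and 20.6, 17.02 and 16.6 CPM in uncut pools (adjusted p = 0.0416, and 0.0655 without uncut replicate 4). Among 24 lysyl oxidase and collagen processing genes, 5 fibrillar collagen genes of types I, III and V, 21 laminin and basement membrane genes and 33 genes of actinotrichia, the collagenous rods of the fin fold, 0 were called with all libraries or without uncut replicate 4. The summed actinotrichia genes had 6847, 6682 and 8518 CPM in cut pools and 9642, 9532 and 13229 CPM in uncut pools. The groups did not overlap, and the median log2 fold change was -0.31 with uncut replicate 4, its highest pool, and 0.02 without it. With libraries scaled by their totals, without TMM factors, the summed groups overlap. The list median was then -0.0127, and that of all genes 0.305.

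Markers of wound epidermis and blastema gave 6 increases and 0 decreases among 34 genes, 5 without uncut replicate 4 and 4 or 5 without any other pool. The list as a whole was split, with 18 positive and 16 negative values and a median log2 fold change of 0.20. Its summed level, 4211, 4428 and 5424 CPM in cut pools and 4007, 4218 and 5668 CPM in uncut pools, overlapped between groups. MVP (ENSDARG00000021242), encoding the major vault protein, had 58.9, 57.4 and 66.5 CPM in cut pools and 12.3, 15.4 and 9.47 CPM in uncut pools (log2 fold change 2.32 ± 0.23, adjusted p = 6.25e-06). The simple keratin gene krt18a.1 (ENSDARG00000018404) had 143, 228 and 314 CPM in cut pools and 53.5, 55.8 and 104 CPM in uncut pools, and its paralogue krt18b (ENSDARG00000028618) had 71.0, 79.9 and 75.03 CPM in cut pools and 37.0, 50.8 and 39.7 CPM in uncut pools. For krt18a.1 replicate 4 was the highest of both groups. FN1, JUNB and tgfb1a made up the 6. Of 19 basal epidermis genes, krt94 (ENSDARG00000044975) rose, at 35.3, 40.7 and 48.2 CPM in cut pools and 13.4, 17.3 and 22.7 CPM in uncut pools. The basal list summed to 2277, 1860.2 and 2374 CPM in cut pools and 2546, 2558 and 3201 CPM in uncut pools, every cut pool being below every uncut pool. Periderm and superficial epidermis gave 2 increases and 0 decreases among 32 genes, and 4 and 3 without uncut replicate 4, with 18 positive and 14 negative values and a median log2 fold change of 0.05. Its summed level was lower in cut pools, 20022, 16671 and 17338 CPM, than in uncut pools, 27234, 26934 and 21353 CPM, with no overlap. With libraries scaled by their totals, without TMM factors, the basal and the periderm sums overlap between groups. Median log2 fold changes were then 0.479 for the basal list, 0.348 for the periderm list and 0.305 for all genes.

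Most lists of developmental signalling gave no more than 1 call a direction, where 1.49% of all genes tested rose and 0.572% fell. Negative values prevailed among Wnt genes (22 of 30) and FGF genes (23 of 29), with median log2 fold changes of -0.27 and -0.44. Without uncut replicate 4 these medians were -0.12 and -0.19, beside 0.04 for all genes. With libraries scaled by their totals, Wnt genes had 18 positive and 12 negative values, and FGF genes 11 and 18. The medians were then 0.0355 and -0.143, beside 0.305 for all genes. Among 29 BMP genes and 41 Hox genes 0 were called; without uncut replicate 4, 1 BMP gene was, the target id2b (ENSDARG00000029544), chosen after its values were seen, with 13.1, 13.6 and 16.3 CPM in cut pools and 5.42, 7.55 and 12.4 CPM in uncut pools. Of 30 Wnt genes, notum2 (ENSDARG00000088411), of a family of secreted enzymes that inactivate Wnt, fell, at 3.51, 3.14 and 3.44 CPM in cut pools and 9.79, 12.3 and 6.45 CPM in uncut pools (log2 fold change -1.47 ± 0.36, adjusted p = 0.0416; adjusted p = 0.00804 without uncut replicate 4, and not called without any other single pool). Of 29 FGF genes, fgfbp2b (ENSDARG00000038056), an FGF-binding protein gene, had 5.69, 13.2 and 14.8 CPM in cut pools and 0.826, 0.592 and 2.32 CPM in uncut pools and rose, and etv5a (ENSDARG00000069763), a transcriptional target of FGF, had 36.4, 29.4 and 32.9 CPM in cut pools and 45.0, 60.7 and 78.3 CPM in uncut pools and fell. Neither was called without uncut replicate 4 (adjusted p = 0.0548 and 0.0615). The same held for SCUBE2 (ENSDARG00000037362), which aids release of hedgehog ligands, with 8.83, 6.09 and 5.43 CPM in cut pools and 11.7, 15.4 and 19.2 CPM in uncut pools, the 1 decrease among 17 hedgehog genes. Of 34 Notch and retinoic acid genes, 2 that handle retinoic acid rose. CYP26B1 (ENSDARG00000077121), which degrades it, had 12.9, 17.3 and 12.3 CPM in cut pools and 6.96, 8.58 and 5.04 CPM in uncut pools, and CRABP1 (ENSDARG00000035904), which binds it, had 23.5, 31.0 and 31.3 CPM in cut pools and 12.15, 18.1 and 18.0 CPM in uncut pools. Without uncut replicate 4 CRABP1 remained called and CYP26B1 did not.

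A list of non-muscle actin and contractile genes, which also holds a few others such as the lamin gene LMNA, shifted upwards. Of 47 tested, 7 rose and 1 fell (median log2 fold change 0.36), where 1.49% of all genes tested rose and 0.572% fell. Without uncut replicate 4 the counts were 11 and 1, and they were 4 and 1 without cut replicate 3 or uncut replicate 3. ARPC5 (ENSDARG00000039142), of the actin-nucleating Arp2/3 complex, had 43.7, 48.7 and 50.6 CPM in cut pools and 12.03, 20.1 and 15.2 CPM in uncut pools (log2 fold change 1.61 ± 0.20, adjusted p = 0.000126). The lamin gene LMNA (ENSDARG00000013415) had 22.4, 32.7 and 27.9 CPM in cut pools and 5.90, 7.10 and 11.7 CPM in uncut pools, and the abundant cytoplasmic actin gene actb1 (ENSDARG00000037746) had 1432, 1589 and 1908 CPM in cut pools and 751, 857 and 791 CPM in uncut pools. All cut pools exceeded all uncut pools for these genes. The decrease was in another actin gene, acte1 (ENSDARG00000079111), which had 56.3, 46.1 and 56.4 CPM in cut pools and 145, 227 and 245 CPM in uncut pools (log2 fold change -1.96 ± 0.22, adjusted p = 2.55e-05). Of 26 annexin and S100 genes, 3 rose and 0 fell: s100a10b, with 127, 166 and 171 CPM in cut pools and 50.1, 54.2 and 74.4 CPM in uncut pools, its binding partner ANXA2 (ENSDARG00000003216), with 135, 143 and 158 CPM in cut pools and 82.4, 78.4 and 76.6 CPM in uncut pools, and S100A1 (ENSDARG00000015543), with 2.78, 2.95 and 1.88 CPM in cut pools and 0.472, 0 and 0 CPM in uncut pools. The count was again 3 without uncut replicate 4, with ANXA3 (ENSDARG00000009196), chosen after its values were seen, in place of S100A1. The hyaluronan receptor gene cd44a (ENSDARG00000087863) was the 1 increase among 35 integrin and adhesion genes, at 2.78, 3.81 and 3.55 CPM in cut pools and 0.118, 0 and 0.302 CPM in uncut pools.

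Cell cycle genes had mostly positive differences, and how many were called turned on uncut replicate 4. Of 69 genes of mitosis and cytokinesis, 66 had a positive log2 fold change, the median was 0.88, and 4 rose and 0 fell. With that pool left out the median was 1.34, and 26 rose and 0 fell; without cut replicate 3, cut replicate 4, uncut replicate 2 or uncut replicate 3, 1 rose. Their summed level was 558, 664 and 785 CPM in cut pools and 283, 305 and 574 CPM in uncut pools. Uncut replicate 4 stood at nearly the level of the other 2 uncut pools added together and above cut replicate 2, so the groups overlapped. TPX2 (ENSDARG00000078654), a spindle assembly factor, had 36.1, 36.9 and 44.9 CPM in cut pools and 12.6, 17.2 and 20.9 CPM in uncut pools (log2 fold change 1.21 ± 0.22, adjusted p = 0.00338). The mitotic kinase gene plk1 (ENSDARG00000058471) had 20.6, 23.8 and 37.0 CPM in cut pools and 9.08, 7.55 and 18.7 CPM in uncut pools (adjusted p = 0.0405, and 0.000605 without uncut replicate 4). UBE2C (ENSDARG00000114670), which tags cyclins for destruction, and MAD2L1 (ENSDARG00000004713), of the spindle checkpoint, were the other two, at log2 fold changes of 1.07 and 1.26. Of 60 genes of DNA replication and S phase, 1 rose, RRM1 (ENSDARG00000014017), which makes deoxyribonucleotides, with 22.1, 25.3 and 39.1 CPM in cut pools and 13.3, 12.6 and 17.8 CPM in uncut pools; 6 rose without uncut replicate 4. The erythrocyte list, also at its highest in that pool, summed to 2595, 1889 and 2779 CPM in cut pools and 1782, 2239 and 3852 CPM in uncut pools. Its part in the cell cycle result was not tested.

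**Figure D3:**
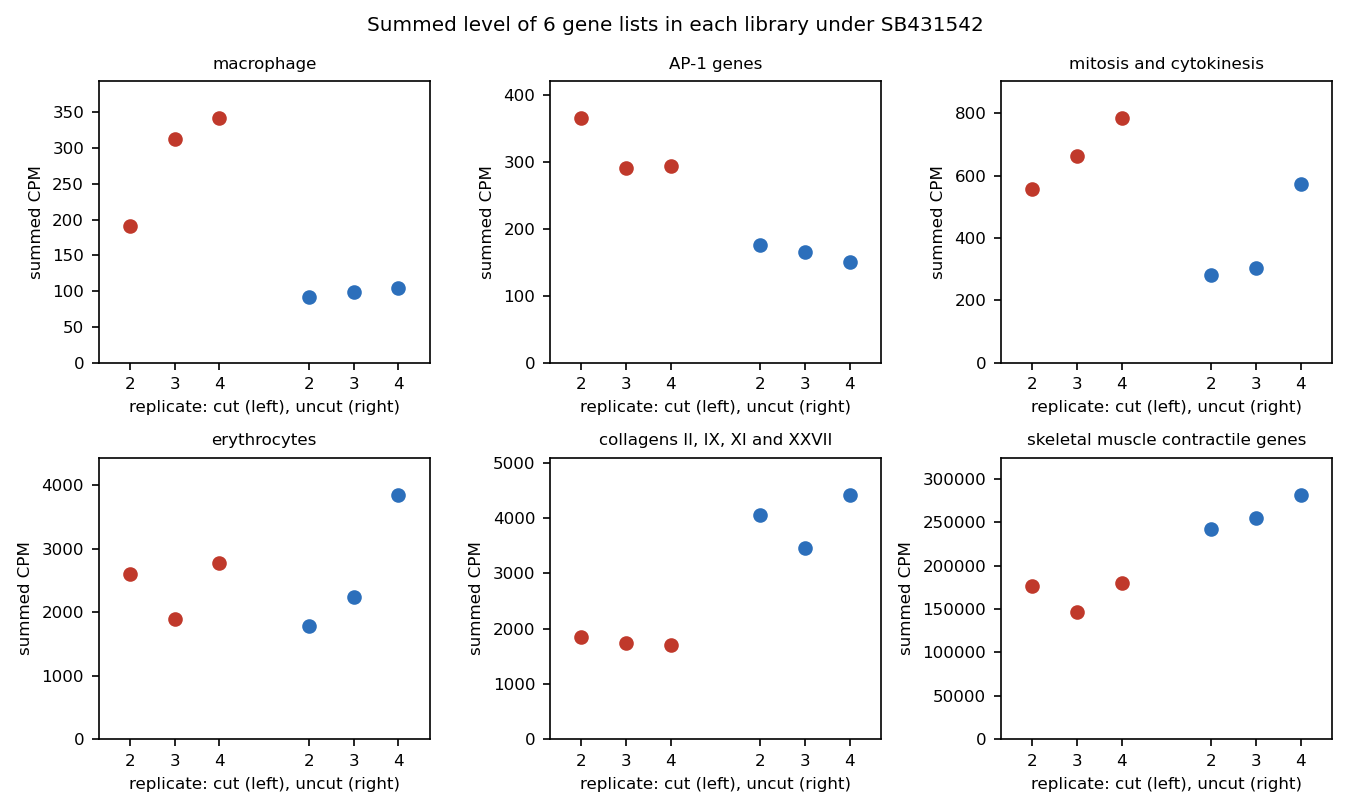
Summed CPM of 6 gene lists in each SB431542 pool (linear axis from 0), cut pools at left in red and uncut pools at right in blue, by replicate number. Macrophage and AP-1 sums are higher and collagen and muscle sums lower in the 3 cut pools with no overlap, while for mitosis the uncut replicate 4, at 574 CPM, lies above cut replicate 2, at 558 CPM.

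Protein folding in the endoplasmic reticulum gave 7 increases and 0 decreases among 63 genes, with 51 positive and a median log2 fold change of 0.29. The count was 9 without uncut replicate 4, 1 without cut replicate 3, 2 without cut replicate 4 and 3 without uncut replicate 3. The disulfide isomerase gene PDIA3 (ENSDARG00000102640) had 121, 137 and 157 CPM in cut pools and 60.5, 74.6 and 42.9 CPM in uncut pools (log2 fold change 1.23 ± 0.21, adjusted p = 0.00194), the chaperone gene HSP90B1 (ENSDARG00000003570) had 106, 142 and 123 CPM in cut pools and 66.3, 62.0 and 69.9 CPM in uncut pools, and the lectin chaperone gene CANX (ENSDARG00000037488) had 62.2, 79.4 and 81.3 CPM in cut pools and 40.0, 44.7 and 22.1 CPM in uncut pools. Of these, PDIA3 and CANX had their lowest uncut level in replicate 4. HYOU1 (ENSDARG00000013670), another chaperone gene of that compartment, had 27.7, 22.1 and 24.2 CPM in cut pools and 13.3, 10.95 and 15.4 CPM in uncut pools, and SSR1 (ENSDARG00000101627), of the translocon, had 13.2, 15.4 and 14.9 CPM in cut pools and 7.90, 6.51 and 3.83 CPM in uncut pools. Without uncut replicate 4 HYOU1 was called and SSR1 was not (adjusted p = 0.0116 and 0.0671). Among 50 proteasome genes 45 had positive values, with a median of 0.30, and 0 were called with all libraries and 2 without that pool.

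Collagens of the notochord sheath and of cartilage were lower in cut tails. Of 9 genes of collagens II, IX, XI and XXVII, 5 fell and 0 rose, with a median log2 fold change of -1.32 (-1.16 without uncut replicate 4), and 5 fell in each fit that left out 1 pool. The summed level was 1844, 1733 and 1702 CPM in cut pools and 4049.6, 3455 and 4424 CPM in uncut pools, and every cut pool was below every uncut pool. COL9A2 (ENSDARG00000024492) had 145, 122 and 134 CPM in cut pools and 319, 350.3 and 396 CPM in uncut pools (log2 fold change -1.41 ± 0.17, adjusted p = 7.35e-05). Another collagen IX gene, col9a1b (ENSDARG00000031483), had 359.7, 371 and 385 CPM in cut pools and 1005, 802 and 985 CPM in uncut pools, and col9a3 (ENSDARG00000037845) had 30.0, 33.2 and 38.4 CPM in cut pools and 63.0, 89.8 and 158 CPM in uncut pools. Uncut replicate 4 was the highest pool for col9a3, whose log2 fold change was -1.61 with it and -1.17 without it. The collagen XI genes COL11A1 (ENSDARG00000026165) and COL11A2 (ENSDARG00000012422) had cut pools at 550.4, 445 and 378 CPM and 93.4, 85.4 and 50.8 CPM, against uncut pools at 1039, 994 and 937 CPM and 186, 193 and 227 CPM. With libraries scaled by their totals 4 of the 5 decreases were called, all but COL11A2.

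Other cartilage matrix genes fell with them. Of 22 cartilage and bone matrix genes, 4 fell and 0 rose, 5 and 1 without uncut replicate 4. UCMA (ENSDARG00000005485), a cartilage matrix-associated protein gene, had 24.3, 22.6 and 21.8 CPM in cut pools and 56.3, 60.7 and 121 CPM in uncut pools (log2 fold change -1.80 ± 0.27, adjusted p = 0.000957). Uncut replicate 4 again held the highest level, and the log2 fold change without it was -1.35. The leucine-rich proteoglycan genes chad (ENSDARG00000045071) and epyc (ENSDARG00000056950) had cut pools at 30.9, 30.8 and 19.8 CPM and 255, 247 and 146 CPM, against uncut pools at 76.8, 70.9 and 75.7 CPM and 563, 493 and 469 CPM; in both, cut replicate 4 was the lowest pool. The matrilin gene MATN3 (ENSDARG00000069265) had 78.4, 69.7 and 64.7 CPM in cut pools and 160.4, 173 and 216 CPM in uncut pools. A second ID with that symbol, MATN3 (ENSDARG00000069245), had 25.5, 37.3 and 39.2 CPM in cut pools and 106, 63.0 and 359 CPM in uncut pools. It was not called with all libraries (adjusted p = 0.0813) and was called without uncut replicate 4 (adjusted p = 0.0168). The leading decrease with a placeholder symbol, ENSDARG00000074745, is not among the 4 cartilage and bone matrix genes that fell. It had 60.1, 66.0 and 59.6 CPM in cut pools and 154, 111 and 229 CPM in uncut pools.

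Notochord genes outside the collagens did not move as 1 group. Of 21 tested, 3 rose and 1 fell, and the median log2 fold change was -0.08 (0.27 without uncut replicate 4, when 5 rose and 1 fell). The decrease was epyc, and the increases were TAGLN, krt18b and CAVIN1, which other tissues use too. tbxta (ENSDARG00000101576), the Brachyury gene of the notochord and the tail bud, had 7.99, 7.61 and 9.91 CPM in cut pools and 1.53, 1.48 and 25.2 CPM in uncut pools. Uncut replicate 4 lay above every cut pool while the other 2 uncut pools lay below every cut pool. Its log2 fold change was -0.25 ± 0.81 (adjusted p = 0.921) with all libraries and 2.48 (adjusted p = 0.00228) without that pool, and it was the 1 gene called without uncut replicate 4 whose sign was opposite with it. It was chosen for this after its values were seen.

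Skeletal muscle genes were lower in cut tails. Of 63 contractile genes, 57 had a negative log2 fold change, the median was -0.58, and 13 fell and 0 rose. The number of decreases was 11 without uncut replicate 4, and it was lower without most other pools: 2 without cut replicate 3, 4 without uncut replicate 3, 5 without cut replicate 2, 6 without cut replicate 4 and 10 without uncut replicate 2. The summed level was 177009.5, 146229 and 180086 CPM in cut pools and 242814, 254599 and 282049.9 CPM in uncut pools, with the lowest cut pool in replicate 3. ANKRD1 (ENSDARG00000076192), an ankyrin repeat gene of the sarcomere, had 280.1, 246 and 252 CPM in cut pools and 526, 483 and 674 CPM in uncut pools (log2 fold change -1.11 ± 0.16, adjusted p = 0.000513). ACTA1 (ENSDARG00000036371), 1 of 2 gene IDs with the symbol of skeletal actin, had 493, 456 and 505 CPM in cut pools and 927, 1318 and 1035 CPM in uncut pools. The troponin I gene tnni1c (ENSDARG00000042559) had 45.9, 46.0 and 50.0 CPM in cut pools and 133, 151 and 71.8 CPM in uncut pools, where replicate 4 was the lowest (adjusted p = 0.0214, and 0.000408 without it). actc1a (ENSDARG00000042535), another actin gene of the list, had 714, 651 and 931 CPM in cut pools and 1220.1, 1548 and 1548 CPM in uncut pools, and MYOZ2 (ENSDARG00000037266), of the sarcomeric Z disc, had 13.6, 12.5 and 17.8 CPM in cut pools and 32.4, 28.1 and 28.6 CPM in uncut pools. NRAP (ENSDARG00000009341), which takes part in myofibril assembly, had 75.9, 66.0 and 50.2 CPM in cut pools and 181, 146 and 141 CPM in uncut pools (adjusted p = 0.00540). Of 29 muscle energy genes, 2 fell, ALDOA (ENSDARG00000034470) and CKMT2 (ENSDARG00000039929), and of 19 myogenic regulators 0 were called with all libraries or without uncut replicate 4. SMYD1 (ENSDARG00000009280), a methyltransferase gene needed for myofibril assembly, was the 1 decrease among 36 heat shock and chaperone genes, at 303, 224 and 281 CPM in cut pools and 468, 591 and 529.9 CPM in uncut pools.

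The muscle result depended on the scaling of the libraries. With libraries scaled by their totals in place of TMM, the median log2 fold change of contractile genes was -0.28, and 5 fell and 1 rose. The median of all genes was then 0.305, still above that of the list. Of the 20 leading decreases, 16 were called under that scaling and notum2, COL11A2, PRDM8 and insig1 were not. The cytosolic ribosomal protein genes, of which 76 of 76 had a negative log2 fold change (median -0.25, 0 called), had a median of 0.0557 with 60 positive when scaled by totals. Their sign thus changed with the scaling, along with the shift of all genes, and their median was below that of all genes under both scalings. The genes of oxidative phosphorylation were negative in 79 of 81 (median -0.39, 0 called; 1 decrease without uncut replicate 4) and had a median of -0.0879 by totals.

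Of 38 neuron genes, 1 fell and 0 rose (median log2 fold change -0.39), and 5 fell without uncut replicate 4. SNCG (ENSDARG00000034423), encoding a synuclein, had 184, 158 and 134 CPM in cut pools and 511, 424 and 449 CPM in uncut pools. Its log2 fold change was -1.54 ± 0.18 (adjusted p = 6.13e-05), and -1.56 without uncut replicate 4. The summed neuron list had 2006, 1907 and 1671 CPM in cut pools and 2799.5, 2881 and 2102 CPM in uncut pools, where replicate 4 was the lowest uncut pool. PRDM8 (ENSDARG00000054683), a transcriptional regulator of neurons in mice, had 3.39, 6.76 and 4.17 CPM in cut pools and 12.7, 11.4 and 12.196 CPM in uncut pools. Of 20 genes of glia, GLUL (ENSDARG00000100003), a glutamine synthetase gene, rose, at 344, 328 and 385 CPM in cut pools and 187, 218 and 213 CPM in uncut pools, and of the fits that left out 1 pool it was called in that without uncut replicate 4. The glia list as a whole lay the other way, with 15 negative and 5 positive values and 0 decreases called. Its median log2 fold change was -0.44, and -0.33 without uncut replicate 4. Among 15 pigment cell genes and 28 endothelial genes 0 were called with all libraries or without uncut replicate 4. The same was true of 22 ionocyte and mucous cell genes and 15 erythrocyte genes with all libraries, while 1 of each was higher without that pool.

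Several large decreases fell outside these tissues. The largest among the named genes was map1lc3cl (ENSDARG00000075727), of the LC3 family of autophagy proteins, with 20.3, 11.99 and 11.7 CPM in cut pools and 63.9, 62.9 and 69.3 CPM in uncut pools (log2 fold change -2.17 ± 0.22, adjusted p = 7.44e-06). TGM2 (ENSDARG00000070157), a transglutaminase gene that shares its symbol with 1 other ID, had 7.62, 5.62 and 6.78 CPM in cut pools and 32.3, 26.8 and 30.0 CPM in uncut pools (log2 fold change -2.16 ± 0.24). The uncut pools of both lay close together, replicate 4 included. PALMD (ENSDARG00000001913), encoding palmdelphin, had 6.53, 8.66 and 7.10 CPM in cut pools and 22.4, 18.5 and 28.02 CPM in uncut pools. insig1 (ENSDARG00000010658), a sensor in the control of sterol synthesis, had 7.26, 9.71 and 7.30 CPM in cut pools and 23.9, 20.1 and 10.9 CPM in uncut pools, with replicate 4 much lower than the other uncut pools (adjusted p = 0.0417, and 0.00140 without it). Of 26 circadian clock genes, 2 fell. NR1D1 (ENSDARG00000033160) and dbpb (ENSDARG00000057652), a repressor within the clock and an output gene of it, had cut pools at 1.82, 1.90 and 2.09 CPM and 4.96, 4.28 and 4.38 CPM, against uncut pools at 4.01, 4.74 and 9.58 CPM and 7.67, 10.8 and 15.6 CPM. Replicate 4 was the highest uncut pool for both, and neither was called without it (adjusted p = 0.130 and 0.115).

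A few more lists held 1 or 2 increases, where 1.49% of all genes tested rose and 0.572% fell. Counts this small say nothing of a list as a whole. Of 37 cell death and p53 genes, 2 rose besides the decrease of map1lc3cl: GADD45G (ENSDARG00000019417), a growth arrest gene with 3 IDs under its symbol, at 35.2, 34.7 and 34.1 CPM in cut pools and 14.6, 10.1 and 8.47 CPM in uncut pools (log2 fold change 1.65 ± 0.23, adjusted p = 0.000301), and caspa (ENSDARG00000008165), a caspase gene of the zebrafish inflammasome, at 6.53, 8.38 and 6.78 CPM in cut pools and 2.48, 2.07 and 3.23 CPM in uncut pools. Of 40 glycolysis and hypoxia genes, 2 rose and 1 fell. igfbp1b (ENSDARG00000038666), a hypoxia-induced binding protein for insulin-like growth factors, had 8.83, 2.66 and 5.22 CPM in cut pools and 0.943, 1.33 and 0.605 CPM in uncut pools, and the glycolytic gene pgam1a (ENSDARG00000005423) had 12.3, 13.8 and 19.6 CPM in cut pools and 6.49, 6.22 and 7.86 CPM in uncut pools. The cut pools of igfbp1b differed by more than 3-fold among themselves. Of 12 genes of the aryl hydrocarbon receptor list, SLC16A9 (ENSDARG00000013926), a transporter gene, had 13.7, 8.38 and 6.26 CPM in cut pools and 3.66, 1.92 and 3.23 CPM in uncut pools. The claudin gene cldna (ENSDARG00000069888) was the 1 increase among 33 junction genes, at 6.78, 4.66 and 5.22 CPM in cut pools and 1.89, 1.92 and 2.72 CPM in uncut pools, and NAP1L1 (ENSDARG00000101813), a histone chaperone, the 1 among 32 histone and chromatin genes, at 73.6, 74.3 and 68.2 CPM in cut pools and 40.6, 50.0 and 17.3 CPM in uncut pools. The calls of cldna, NAP1L1 and SLC16A9 were each lost in at least 1 fit that left out 1 pool, and the 2 glycolysis increases in the fit without cut replicate 2. Among 76 ribosome biogenesis genes, 43 glutathione and antioxidant genes and 33 amino acid synthesis genes 0 were called with all libraries.

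Leaving out uncut replicate 4 brought in 184 calls and ended 73. Among the 10 genes with the smallest adjusted p that were called without it and not with it, 3 are mitotic: BIRC5 (ENSDARG00000075621), encoding survivin, CCNB1 (ENSDARG00000051923), encoding cyclin B, and cdca8 (ENSDARG00000043137), of the chromosomal passenger complex. BIRC5 had 7.02, 8.47 and 11.2 CPM in cut pools and 2.24, 1.04 and 6.35 CPM in uncut pools, so that replicate 4 lay just under the lowest cut pool (adjusted p = 0.0826, and 0.00156 without it). CCNB1 had 9.56, 14.5 and 18.99 CPM in cut pools and 5.07, 4.14 and 9.37 CPM in uncut pools, and cdca8 had 10.29, 13.1 and 15.9 CPM in cut pools and 3.66, 5.33 and 8.87 CPM in uncut pools. The other increases were tgm2l (ENSDARG00000093381), a transglutaminase gene, hapln1a (ENSDARG00000089769), which links hyaluronan to proteoglycans, and CLIC1 (ENSDARG00000103340), a chloride channel gene. For hapln1a the levels were 30.9, 44.5 and 36.6 CPM in cut pools and 17.5, 13.8 and 28.9 CPM in uncut pools. The decreases were SYNPO2L (ENSDARG00000078696) and LRRC39 (ENSDARG00000071465), both of striated muscle, proza (ENSDARG00000037783) and scdb (ENSDARG00000030265), a fatty acid desaturase gene. Their log2 fold changes without that pool were -1.40, -0.88, -0.82 and -0.80.

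**Figure D4:**
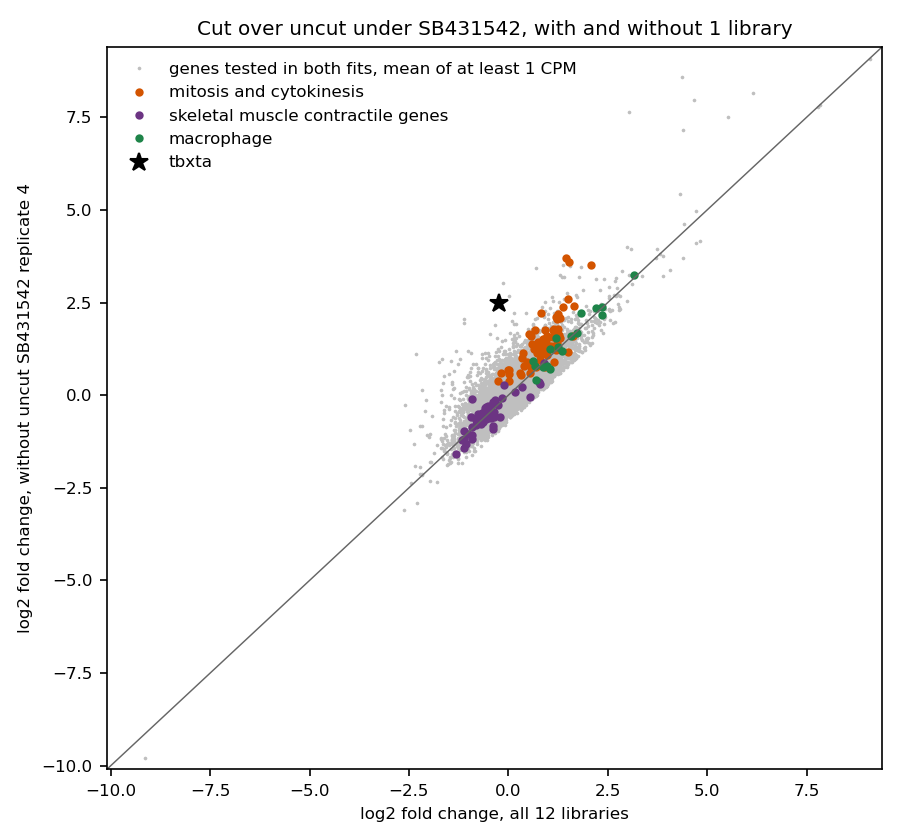
Log2 fold change, cut over uncut under SB431542, with all 12 libraries (x axis) and without uncut replicate 4 (y axis) for genes whose mean level was 1 CPM or more; the line marks equal values. Mitosis genes (orange) lie mostly above the line, with medians of 0.88 and 1.34, macrophage and muscle genes (green, purple) lie near it, and tbxta (star) is at -0.25 with and 2.48 without that pool.

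The response under SB431542 was set beside that under DMSO, which shares no library with it and asked the same question in tails without the inhibitor. Under DMSO, 510 genes (3.65%) were higher and 270 (1.93%) lower. Of the genes called under SB431542, 153 of 208 increases and 55 of 80 decreases were also called in that direction under DMSO, which is 73.6% and 68.8% of the SB431542 calls. In all, 204 of the 208 increases had a positive and 80 of the 80 decreases a negative log2 fold change under DMSO. The other 55 increases and 25 decreases were not called under DMSO, which does not show that they differ. The difference of the 2 responses was tested as an interaction, and edgeR called 0 of 13978 genes (0%), with 706 at an unadjusted p under 0.05 and a smallest adjusted p of 0.910. Without uncut replicate 4 it was 0 called and 475 at that unadjusted p. Even where no gene differs, an unadjusted p under 0.05 is reached by a share of about 0.05 of the genes. Neither count is thus read as genes whose responses differ. DESeq2 called 2 genes, limma-trend with the smaller pseudocount 1, and limma-voom 0.

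**Figure D5:**
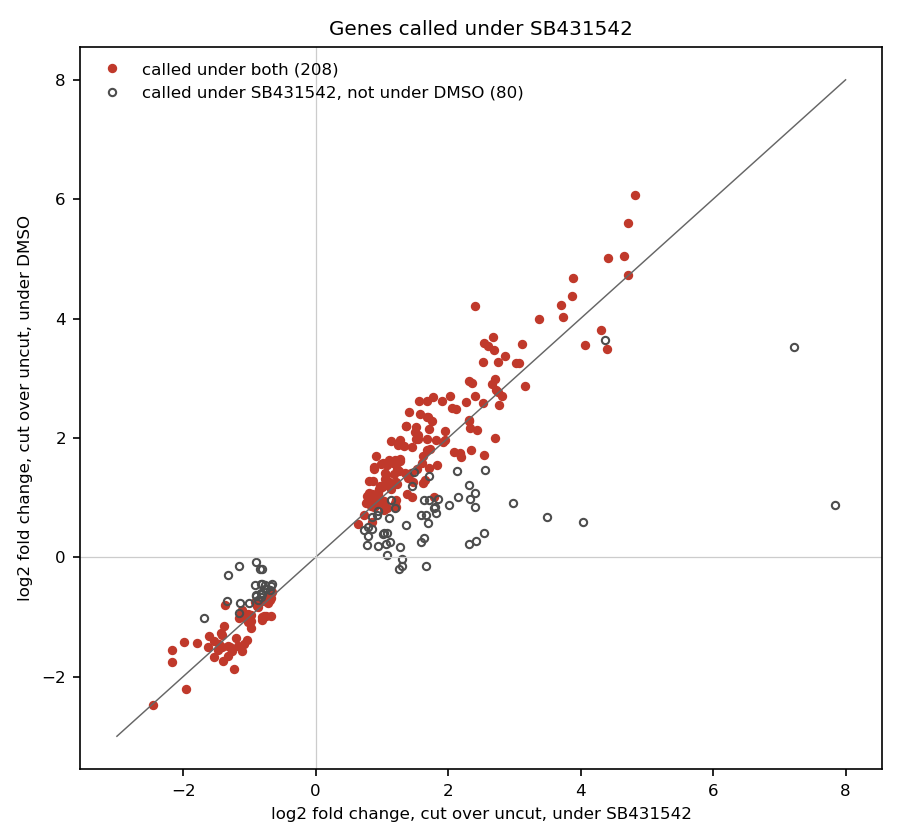
Log2 fold change, cut over uncut, of the 288 genes called under SB431542 (x axis) and the same genes under DMSO (y axis); the line marks equal values. The 208 red points were also called under DMSO and the 80 open points were not; 204 of the 208 increases and all 80 decreases have the same sign under DMSO, and the points beyond 7 on the x axis are genes at 0 in uncut SB431542 pools.

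The 5 genes with the smallest interaction p, none of them called, fell into 2 kinds. si:ch211-241e1.3 (ENSDARG00000022615) had 3.39, 1.90 and 3.65 CPM in cut and 1.77, 3.40 and 2.12 CPM in uncut pools under SB431542, which overlapped, and 16.7, 10.8 and 20.3 CPM in cut and 1.46, 2.86 and 2.12 CPM in uncut pools under DMSO, which did not. f13a1b (ENSDARG00000036893), a coagulation factor XIII gene, had 7.62, 7.23 and 12.9 CPM in cut and 4.13, 7.55 and 4.43 CPM in uncut pools under SB431542, and 16.2, 24.0 and 27.3 CPM in cut and 3.32, 4.00 and 3.37 CPM in uncut pools under DMSO. Both had an excision response under DMSO (log2 fold changes 2.90 and 2.66) that was not called under SB431542 (0.32 and 0.82). The other 3 pointed the opposite way. ppp2r5ca (ENSDARG00000059083), a phosphatase subunit gene, had 5.204, 5.04 and 3.24 CPM in cut and 1.53, 1.48 and 1.61 CPM in uncut pools under SB431542, and 2.03, 1.81 and 0.731 CPM in cut and 4.12, 2.57 and 2.503 CPM in uncut pools under DMSO. The gene ENSDARG00000110075 had 3.39, 2.95 and 2.82 CPM in cut pools and 0 in the 3 uncut pools under SB431542, while under DMSO it had 6.41, 3.14 and 6.22 CPM in cut and 5.05, 2.28 and 1.64 CPM in uncut pools. KIF3C (ENSDARG00000017162), a kinesin gene, was under 3 CPM in every library.

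Among the genes described above, some had near-equal responses under both treatments and others did not, by their own values. The log2 fold changes under SB431542 and DMSO were 2.32 and 2.28 for MVP, -1.46 and -1.45 for chad, and 2.32 and 2.29 for FOSL2. They were 1.14 and 1.94 for apoeb, 1.78 and 2.68 for SOCS3, and -1.24 and -1.87 for epyc, each larger in size under DMSO. Larger under SB431542 were those of igfbp1b (2.54 and 0.41), FOSL1 (2.41 and 0.84), PRDM8 (-1.32 and -0.30) and cldna (1.31 and -0.14). For PRDM8 the DMSO pools had 7.88, 7.32 and 6.95 CPM cut and 8.501, 6.71 and 11.6 CPM uncut, which overlapped. These pairs were chosen after their values were seen, and no interaction among them was called. List medians under SB431542 and DMSO were 1.24 and 1.80 for macrophage markers, -1.32 and -1.32 for collagens II, IX, XI and XXVII, -0.58 and -0.69 for muscle contractile genes and 0.88 and 0.99 for mitosis. Without uncut replicate 4 the SB431542 medians of these lists were 1.425, -1.16, -0.58 and 1.34. The mitosis median under SB431542 was thus below that under DMSO with that pool and above it without that pool.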

How the data were processed

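Messenger RNA was counted in 12 libraries of larval zebrafish tails, each a pool of 100 tails, in 4 groups of 3 set by the labels. Per the labels' protocols, RNA was extracted with TRI Reagent and lithium chloride, and the Lexogen QuantSeq FWD kit was used, which reads transcript ends, so that a count does not scale with transcript length and splicing is not seen. The authors deposited estimated counts per gene, not normalized; in each library 23.1% to 26.7% of nonzero values had a fraction. Per the submitters' processing notes the build was GRCz11. The aligner and the counter were not given in the sources used here. Shared reads make near-identical paralogues less certain. The authors also deposited a normalized signal per gene with 1 factor per library; whole reads were recovered from 100% of its values (tolerance 0.001), and 100% equalled the rounded estimated counts.

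Here the estimated counts were rounded and tested with edgeR 4.0.16 in R 4.3.3 (quasi-likelihood F test, TMM, filterByExpr, robust, 4 group means over 12 libraries, common biological coefficient of variation 0.261), two-sided, with Benjamini-Hochberg adjustment over all genes tested and calls at an adjusted p under 0.05. All adjusted p-values in the text are from edgeR. Errors of log2 fold changes are standard errors. The fit was repeated without uncut SB431542 replicate 4, with the filter redone. Exact permutation of 3 against 3 libraries cannot give a two-sided p below 0.1, so no single-gene permutation test is given. Counts across 63 gene lists were taken without a set test; 739 entries had a symbol's exact spelling, 804 differed in letter case, 475 matched once a paralogue letter was dropped and 172 found no symbol. Symbols matched 23598 of 30258 IDs. Several symbols, among them FN1, TIMP2, THBS1, JUNB, SOCS3 and SNCG, are each shared by 2 IDs, and values are of the ID printed. The filter removes genes with low counts, so counts of list members are of those tested. Members are gene IDs, and each ID of a shared symbol is counted separately.

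The comparison, the lists and the rules were chosen with earlier results of these data known. Named genes were the 20 largest increases and decreases called with and without uncut replicate 4. These passed filters of a mean of at least 5 CPM, a named gene and no overlap. Also named were up to 5 called members of each list by adjusted p and the 5 smallest interaction p-values. The 10 smallest adjusted p-values called only without that library were taken by the same filters of level, name and overlap. The fit was checked on simulated data. Alternatives were DESeq2 1.42.0, scaling by RLE or by the upper quartile, limma 3.58.1 (voom, and trend on the normalized values with a pseudocount of 1 or 0.1), no filter, a filter of 10 counts and a mean of 1 CPM, the replicate number as a block, only SB431542 libraries, and each library left out; an older form of the edgeR test, recovered reads and scaling by totals were added after the data were seen. Promoter sequences were not used here, and 1 named gene and its list are not reported here.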

Additional observations from a re-analysis of the deposited data

How the results depend on the processing

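The 208 increases and 80 decreases stayed within 1.5 times under RLE and upper-quartile scaling, limma-voom and limma-trend with either pseudocount. The same held with no filter, the stricter filter and the older edgeR test. Recovered reads equalled the rounded counts, so their fit could only repeat the main calls. DESeq2 called 334 and 214. Scaling by library totals gave 783 and 31. A fit of only the 6 SB431542 libraries gave 95 and 32, and that fit without uncut replicate 4 gave 191 and 125. Leaving out 1 pool gave 90 to 273 increases and 29 to 126 decreases. For the interaction, edgeR called 0 genes in every fit run, limma-trend with a pseudocount of 0.1 called 1 (ENSDARG00000110075) and DESeq2 2 (the same gene and si:ch211-241e1.3); the cause was not tested. Of the values of the genes that the naming rules chose, 2173 kept their side of the threshold, 356 lost the call and 50 gained it. Under these alternatives 0 turned in direction. The fit of recovered reads, which could not differ, supplied 123 of those that kept their side. Outside those rules, tbxta had -0.25 with all libraries and 2.48 without uncut replicate 4.

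The replicate numbers were checked for pairing. Deviations of same-numbered cut and uncut pools from their group means correlated at 0.179, -0.0294 and 0.343. Those of differently numbered pools ran from -0.284 to 0.182. So few pairs cannot decide whether same-numbered pools share more than a number. A replicate block over all 12 libraries gave 241 increases, 98 decreases and 0 interaction calls, and a block over the 6 SB431542 libraries gave 183 and 88.

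With 3 pools a group, calls near the threshold turned on single pools; leaving out cut replicate 3 gave the fewest calls. Depth of 7368986 to 10843877 counts leaves genes of a few CPM with wide errors. A search of promoters for motifs was not run.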
